A study of Homo sapiens with 6 samples.

Results

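The genes described here are 9 TALE homeobox genes, PBX2, PBX3, PBX4, MEIS1, MEIS2, MEIS3, PKNOX1, PKNOX2 and TGIF1, which were chosen by symbol from the 52088 entries of a table of read counts per gene. Bulk RNA-seq libraries of K562, a human erythroleukaemia cell line, were compared in 3 groups of 2 libraries. Control cells carried the genotype WT. PAX6_Ta KO cells lacked the ultra-conserved element (UCE) PAX6_Ta on 11p, and PBX3_Cl KO cells lacked the UCE PBX3_Cl on 9q. Both knockouts were made by transfecting K562 cells with a plasmid that carried Cas9 and a pair of guide RNAs, followed by puromycin selection and the picking of single clones. Control is not labelled as a line that went through these steps, so loss of an element cannot be told apart from transfection, selection and cloning. Whether the 2 libraries of a group came from separate cultures or clones is not stated. The p-values therefore reflect the spread between 2 libraries of a group, and this spread may be technical.

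TALE proteins are transcription factors whose homeodomain has a short loop extension. PBX proteins bind DNA together with HOX proteins and with MEIS or PKNOX proteins, and MEIS binding carries PBX into the nucleus. In leukaemia MEIS1 and PBX3 are known as partners of HOXA9, while TGIF1 is a repressor that acts in TGF-beta and retinoid signalling. PBX3_Cl is named after PBX3, the nearest of the 9 genes to a deleted element.

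PBX3_Cl is a 222 bp element at chr9:128457564-128457785 (GRCh37), in an intron of MAPKAP1, whose gene spans chr9:128199672-128469513 on the minus strand. It lies 51.8 kb upstream of the start of PBX3, a gene at chr9:128509624-128729656 on the plus strand. The guide pair listed for the element is shown with its position, because it sets the deleted stretch. Capitals mark the PAM, the bases that Cas9 needs next to its target.

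U6 guide, plus strand at chr9:128456987-128457009: ctcagtactgcaaagactgtGGG

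H1 guide, minus strand at chr9:128457970-128457992: gcttgtacagttaagcatgaTGG

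Cuts 3 bases before each PAM would remove 972 bp, chr9:128457004-128457975, in which the annotation has 0 exons. Gene counts therefore carry no direct check of this deletion. The sequence of the element itself is given below on the plus strand, since the core of the MEIS, PKNOX and TGIF binding motif, TGACAG, occurs in it. Capitals mark the matches, which read CTGTCA because both lie on the minus strand.

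PBX3_Cl, plus strand, GRCh37: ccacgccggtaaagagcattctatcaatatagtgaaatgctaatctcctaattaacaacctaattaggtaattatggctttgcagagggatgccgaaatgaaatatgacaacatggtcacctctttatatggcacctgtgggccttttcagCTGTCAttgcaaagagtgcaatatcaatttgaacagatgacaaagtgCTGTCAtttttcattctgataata

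The 2 matches to TGACAG lie at bases 152 to 157 and 199 to 204 of the element. Of 346 windows of 222 bases, each centred on an element listed for K562, 19.1% held at least 1 match on either strand and 3.76% held 2 or more. A PBX and HOX motif, TGATTNAT, had 0 matches in PBX3_Cl and was found in 7.51% of those windows. A match is a run of letters and not evidence of binding.

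The 250 bases upstream of the RefSeq start (GRCh38.p14) are shown for PBX3 and PBX4, the members whose counts rose in both knockouts. Capitals again mark TGACAG on the minus strand.

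PBX3, plus strand at chr9:125747933-125748182: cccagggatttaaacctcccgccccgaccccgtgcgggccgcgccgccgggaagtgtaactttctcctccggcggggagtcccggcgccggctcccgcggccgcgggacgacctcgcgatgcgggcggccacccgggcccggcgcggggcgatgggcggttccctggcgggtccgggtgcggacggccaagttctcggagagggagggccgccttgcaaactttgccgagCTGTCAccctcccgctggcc

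PBX4, minus strand at chr19:19618688-19618937: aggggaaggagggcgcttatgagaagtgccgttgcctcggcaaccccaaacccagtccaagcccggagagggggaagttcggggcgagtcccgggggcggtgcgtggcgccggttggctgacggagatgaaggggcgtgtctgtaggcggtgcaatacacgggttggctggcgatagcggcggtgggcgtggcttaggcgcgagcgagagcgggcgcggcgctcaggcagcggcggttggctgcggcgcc

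Both windows were rich in G and C, with 75.6% in PBX3 and 70.4% in PBX4. The PBX3 window held 1 match to TGACAG and the PBX4 window held 0, and neither held TGATTNAT. RefSeq starts were matched for 8 of the 9 members, with 16 starts in all. TGACAG was found at 3 of them (PBX3 and TGIF1) and TGATTNAT at 3 (MEIS2 and TGIF1). Among 35116 windows upstream of RefSeq starts, 13.0% held TGACAG and 2.48% held TGATTNAT.

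The libraries held 45912044 to 60908470 counts. Levels of a gene are given as CPM, its read count scaled to a common library total, after TMM scaling for the composition of the libraries. Replicates of a group correlated at 0.981 to 0.990 in log2 CPM, and libraries of different groups at 0.945 to 0.961. The K562 identity was checked with 14 erythroid markers, of which none was at 0 in any group. Their summed level was 5940 to 6981 CPM in Control, 9774 to 11489 CPM in PAX6_Ta KO and 8545 to 9579 CPM in PBX3_Cl KO. The summed lymphoid markers stayed at 5.11 to 10.8 CPM over all libraries, with the B cell marker MS4A1 at 0 in every group. Differences were tested with edgeR over 20746 genes and called at an adjusted p below 0.05. Both knockouts were compared with the same Control libraries, so these 2 comparisons are not independent of each other.

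In Control K562 the family was carried by PBX2 and TGIF1, and PBX3 and PBX4 were near the bottom of the order. Levels between genes were compared as RPKM, which divides the CPM of a gene by the length of its exons in kilobases. PBX2, a broadly expressed PBX gene, had 42.9 RPKM ± 7.23 (SD, n = 2) in Control. TGIF1 followed with 6.68 RPKM ± 0.0749 (SD, n = 2), then MEIS2 with 3.81, PKNOX1 with 3.02 and MEIS1 with 2.57 RPKM. The low members were MEIS3 with 0.258, PBX3 with 0.189 and PBX4 with 0.0813 RPKM, and PKNOX2 had 0 counts. In Control the libraries of each member stood apart from those of the next member in this order. The order of the upper 5 genes was the same in both knockouts. With the longest transcript in place of all exons as the length, MEIS1 came before PKNOX1 in every group. The other members kept their places.

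The lower part of the order differed between the groups. PBX3 moved above MEIS3 in both knockouts, with 1.13 RPKM in PAX6_Ta KO and 1.17 RPKM in PBX3_Cl KO. In PAX6_Ta KO the PBX4 libraries, with a mean of 1.04 RPKM, overlapped those of PBX3. In PBX3_Cl KO the PBX4 libraries, with a mean of 0.409 RPKM, overlapped those of MEIS3, with a mean of 0.421 RPKM. PBX3 remained a minor PBX gene in each group. Its RPKM was 0.375% and 0.523% of that of PBX2 in the Control libraries, 2.14% and 2.30% in PAX6_Ta KO, and 2.32% and 2.57% in PBX3_Cl KO.

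**Figure D1:**
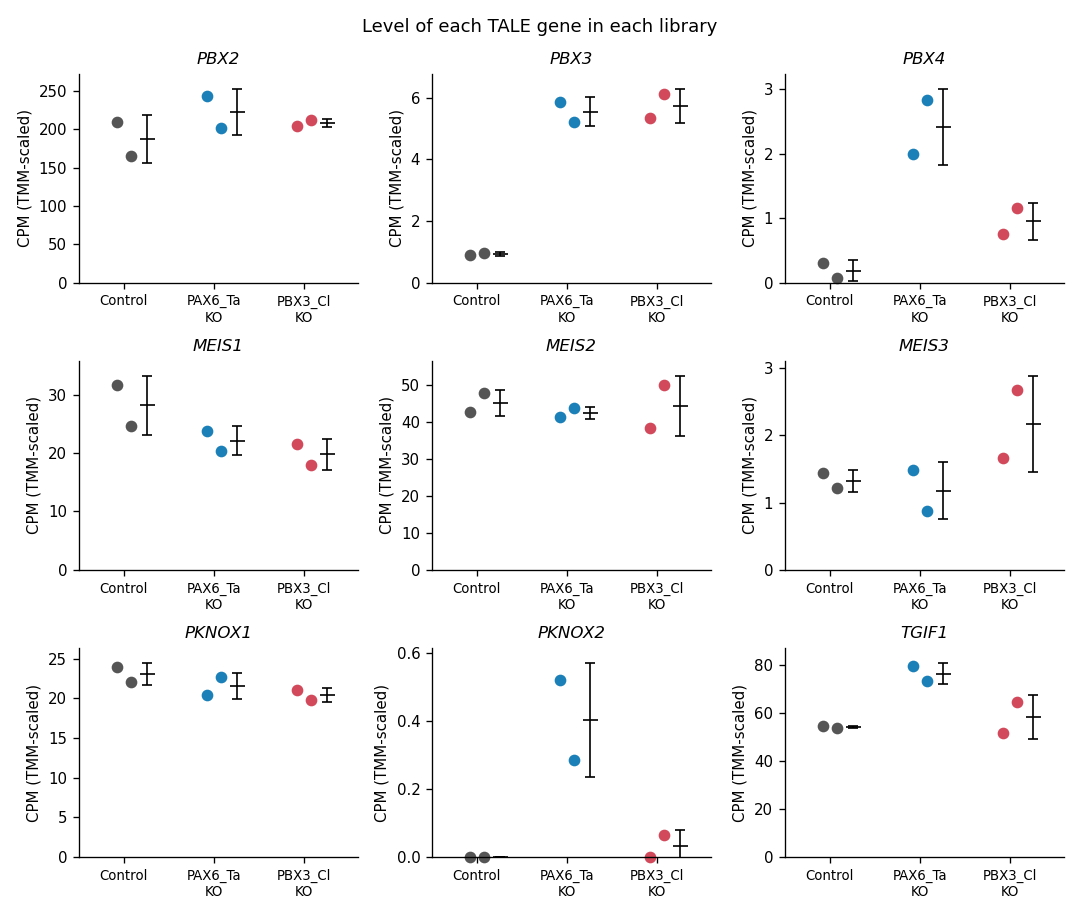
TMM-scaled CPM of the 9 genes, 1 panel per gene with a linear axis from 0, for Control, PAX6_Ta KO and PBX3_Cl KO. Dots are the 2 libraries of a group in the order of their replicate numbers, and the bar with whiskers is their mean ± SD. PBX3 sat at 0.883 and 0.970 CPM in Control and at 5.20 to 6.11 CPM in the knockouts, while the groups overlapped for MEIS2.

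Compared with Control, 3 members rose in PAX6_Ta KO (PBX3, PBX4 and PKNOX2) and none fell. In PBX3_Cl KO 2 members rose (PBX3 and PBX4) and none fell. The background in PAX6_Ta KO was 7.21% of tested genes called higher and 4.21% called lower. In PBX3_Cl KO it was 6.28% higher and 2.69% lower. At an unadjusted p below 0.05 the members numbered 4 higher and 0 lower in PAX6_Ta KO, and 2 higher and 1 lower in PBX3_Cl KO. DESeq2 called 3 higher and 0 lower in the first and 2 higher and 0 lower in the second. The members had a median log2 fold change of 0.25 in PAX6_Ta KO and of 0.15 in PBX3_Cl KO, beside -0.02 and -0.01 over all tested genes. The median member in both knockouts was PBX2, which did not pass the test. Without PKNOX2, which has no fold in PBX3_Cl KO, the median of the 8 others there was 0.13. All 9 members passed the filter on low counts, which asked for 0.207 CPM in at least 2 libraries. PBX4 (above it in 1 Control library) and PKNOX2 (above it in no Control library) passed only through libraries of the knockouts, so that a call for these could only be upward.

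PBX3 encodes the PBX protein known as a cofactor of HOXA9 and MEIS1. Its counts were 53 and 49 in the Control libraries, 282 and 274 in PAX6_Ta KO, and 235 and 280 in PBX3_Cl KO. All 4 knockout libraries were above both Control libraries, and the 2 knockouts overlapped. The mean level was 0.927 CPM ± 0.0619 in Control, 5.54 CPM ± 0.472 in PAX6_Ta KO and 5.72 CPM ± 0.553 in PBX3_Cl KO (SD, n = 2 each). PBX3 was 5.97-fold higher in PAX6_Ta KO than in Control (log2 fold change 2.58, SE 0.30, edgeR adjusted p = 0.000167). It was 6.17-fold higher in PBX3_Cl KO (log2 fold change 2.62, SE 0.30, edgeR adjusted p = 0.000178).

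The rise of PBX3 was thus also measured in the line in which PBX3_Cl was not the target. Between the knockouts PBX3 differed by -0.05 on the log2 scale (PAX6_Ta KO minus PBX3_Cl KO, SE 0.29, edgeR adjusted p = 0.951). The 95% interval of this difference was -0.67 to 0.58, which leaves room for a difference of that size in either direction. The other 405 tested genes of 9q had a median log2 fold change of 0.00 in the first knockout and 0.04 in the second.

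PBX4, a PBX gene best known from the testis, had the fewest counts of the PBX genes. They were 18 and 4 in Control, 96 and 149 in PAX6_Ta KO, and 33 and 53 in PBX3_Cl KO. The 3 groups did not overlap, with Control lowest and PAX6_Ta KO highest. Its level was 0.190 CPM ± 0.156 in Control, 2.41 CPM ± 0.588 in PAX6_Ta KO and 0.953 CPM ± 0.289 in PBX3_Cl KO (SD, n = 2 each). PBX4 rose in PAX6_Ta KO by a log2 fold change of 3.62 (SE 0.56, edgeR adjusted p = 0.000996). In PBX3_Cl KO the log2 fold change was 2.28 (SE 0.58, edgeR adjusted p = 0.0245).

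The size of both changes of PBX4 rested on the Control libraries, of which replicate 1 had 0.300 CPM and replicate 2 had 0.0792 CPM. In PAX6_Ta KO the log2 fold change was 4.88 without Control replicate 1 and 2.99 without Control replicate 2. In PBX3_Cl KO it was 3.55 without Control replicate 1 and 1.66 without Control replicate 2, and the call was lost in the latter (edgeR adjusted p = 0.134). The call in PBX3_Cl KO was also lost without PBX3_Cl KO replicate 2 (adjusted p = 0.0984) and with upper-quartile scaling (adjusted p = 0.0519). The other genes of 19p had a median of 0.34 in PBX3_Cl KO, and with that median taken out PBX4 was at 1.95 (adjusted p = 0.0585). The call in PAX6_Ta KO was made under all 14 alternatives run.

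PBX2 lies in the MHC region of 6p. Its level was 210 and 165 CPM in Control, 244 and 201 CPM in PAX6_Ta KO, and 205 and 212 CPM in PBX3_Cl KO, so that the groups overlapped. The log2 fold change was 0.25 (SE 0.21, edgeR adjusted p = 0.575) in PAX6_Ta KO and 0.15 (SE 0.21, adjusted p = 0.792) in PBX3_Cl KO. The 95% intervals were -0.20 to 0.70 and -0.30 to 0.60. An annotated transcript on the same strand shares 15.2% of the exon bases of PBX2. Reads from these shared bases may not be counted for PBX2, so its counts are uncertain in this respect.

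**Figure D2:**
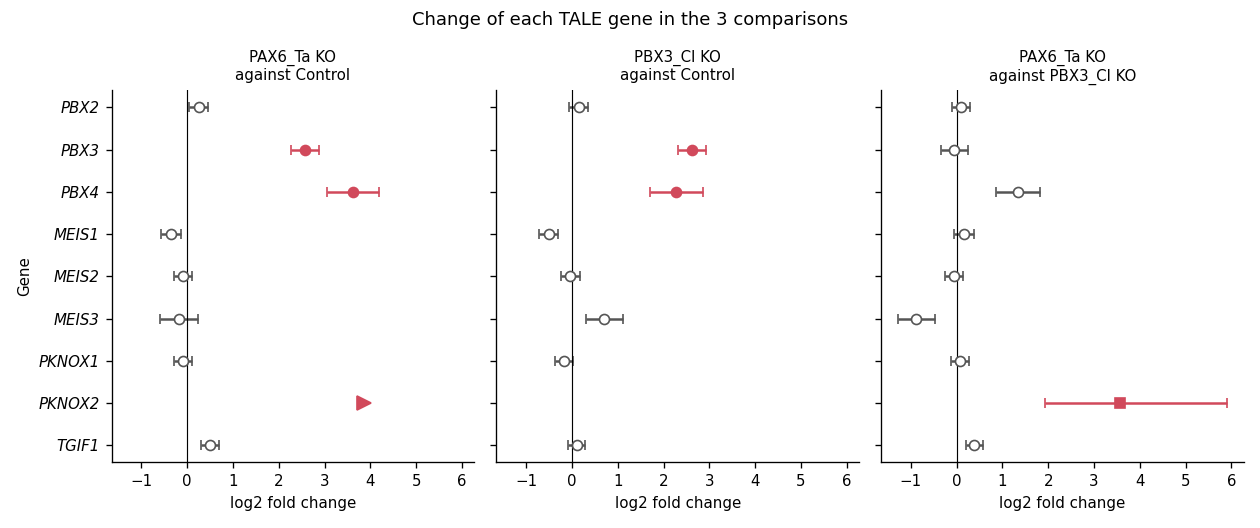
Log2 fold change of the 9 genes in the 3 comparisons, with circles and whiskers for the fitted value ± SE and filled red symbols for an adjusted p below 0.05. For PKNOX2 the arrowhead is a lower bound with Control set to 3 counts and the square is a ratio of counts with its 95% interval, and no value is drawn for it in PBX3_Cl KO against Control. PBX3 stands at 2.58 and 2.62 in the comparisons with Control and at -0.05 between the knockouts.

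None of the 3 MEIS genes passed the test against Control by edgeR or DESeq2 in either knockout. At an unadjusted p below 0.05 there was 1, MEIS1, in PBX3_Cl KO. MEIS1 encodes the partner that holds PBX and HOX proteins on DNA in leukaemic cells. Its level was 31.7 and 24.6 CPM in Control, 23.8 and 20.4 CPM in PAX6_Ta KO, and 21.6 and 17.9 CPM in PBX3_Cl KO. Each knockout library was below both Control libraries, with a small gap between 24.6 and 23.8 CPM.

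The log2 fold change of MEIS1 was -0.51 in PBX3_Cl KO (SE 0.22, edgeR unadjusted p = 0.0350, adjusted p = 0.202), with a 95% interval of -0.98 to -0.04. In PAX6_Ta KO it was -0.35 (SE 0.21, adjusted p = 0.400). MEIS1 lies on 2p, where the other 354 tested genes had a median of -0.50 in PAX6_Ta KO against Control and of -0.02 in PBX3_Cl KO. Relative to that median MEIS1 stood at 0.15 in PAX6_Ta KO (adjusted p = 0.824) and at -0.49 in PBX3_Cl KO (adjusted p = 0.250). An antisense gene, MEIS1-AS2, shares 13.1% of the exon bases of MEIS1. The sources used here do not give the strand setting of the counting.

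MEIS2 was the highest MEIS gene, with 42.8 and 47.8 CPM in Control, 41.5 and 43.8 CPM in PAX6_Ta KO and 38.6 and 50.1 CPM in PBX3_Cl KO. The Control libraries lay inside the range of the PBX3_Cl KO libraries. Its log2 fold change was -0.09 (SE 0.20, 95% interval -0.52 to 0.34) in PAX6_Ta KO and -0.03 (SE 0.20, 95% interval -0.46 to 0.40) in PBX3_Cl KO.

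MEIS3 had 1.43 and 1.21 CPM in Control, 1.48 and 0.874 CPM in PAX6_Ta KO, and 1.66 and 2.66 CPM in PBX3_Cl KO. Both PBX3_Cl KO libraries were above the other 4. The log2 fold change was 0.71 in PBX3_Cl KO (SE 0.41, edgeR adjusted p = 0.397) and -0.17 in PAX6_Ta KO (SE 0.41, adjusted p = 0.889). Their 95% intervals, -0.18 to 1.59 and -1.07 to 0.73, are wide at 46 to 122 counts a library.

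PKNOX1 and PKNOX2 encode proteins that compete with MEIS proteins for PBX. PKNOX1 was at 24.0 and 22.1 CPM in Control, 20.4 and 22.7 CPM in PAX6_Ta KO, and 21.0 and 19.8 CPM in PBX3_Cl KO. Its log2 fold changes were -0.09 (SE 0.20, 95% interval -0.52 to 0.33) and -0.17 (SE 0.20, 95% interval -0.60 to 0.25) in the order PAX6_Ta KO and PBX3_Cl KO.

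PKNOX2 had 0 counts in both Control libraries, 25 and 15 counts in PAX6_Ta KO, and 0 and 3 counts in PBX3_Cl KO. It was at least 14.6-fold higher in PAX6_Ta KO than in Control when Control was set to a floor of 3 counts for the pair of libraries (edgeR adjusted p = 0.00579). Its level in PAX6_Ta KO remained low, at 0.520 and 0.285 CPM. No fold was computed for PBX3_Cl KO against Control, since both were at or under that floor (edgeR adjusted p = 0.358). Under a filter of 1 CPM in 2 libraries PKNOX2 was not tested, and under the other 13 alternatives it was called in PAX6_Ta KO against Control.

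TGIF1 was measured at 54.7 and 53.8 CPM in Control, 79.5 and 73.5 CPM in PAX6_Ta KO, and 51.9 and 64.8 CPM in PBX3_Cl KO. The PAX6_Ta KO libraries were above the other 4, and the PBX3_Cl KO libraries enclosed those of Control. The log2 fold change was 0.49 in PAX6_Ta KO (SE 0.19, edgeR adjusted p = 0.135) and 0.11 in PBX3_Cl KO (SE 0.19, adjusted p = 0.855). TGIF1 passed the test in PAX6_Ta KO when PBX3_Cl KO replicate 1 (adjusted p = 0.0488) or replicate 2 (adjusted p = 0.0458) was left out, and when only the 4 libraries compared were fitted (adjusted p = 0.0430). The log2 fold change under these 3 settings was 0.49 to 0.50.

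Between the knockouts only PKNOX2 was called, higher in PAX6_Ta KO, and no member was called lower. The background was 5.26% of tested genes called higher and 6.71% called lower. The unadjusted count was 2 higher and 0 lower, and DESeq2 called 0 members. The median of the members was 0.10, beside -0.01 over all tested genes. For PKNOX2 the ratio of scaled counts was 11.9 (95% interval 3.79 to 60.2 from 40 against 3 counts, which covers counting error only) with an edgeR adjusted p of 0.0340. The call was lost without PAX6_Ta KO replicate 1 (adjusted p = 0.204), without PBX3_Cl KO replicate 1 (adjusted p = 0.124) and with DESeq2 (adjusted p = 0.0726).

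For PBX4 the difference was 1.34 on the log2 scale, with PAX6_Ta KO above PBX3_Cl KO (SE 0.48, edgeR adjusted p = 0.104). Its 95% interval was 0.29 to 2.39. It passed the test without Control replicate 1 (adjusted p = 0.0436), without Control replicate 2 (adjusted p = 0.0390), with only the 4 libraries compared (adjusted p = 0.0408) and with no filter on low counts (adjusted p = 0.0188). MEIS3 differed by -0.88 (SE 0.41, adjusted p = 0.215) and TGIF1 by 0.39 (SE 0.19, adjusted p = 0.239). The 4 remaining genes, PBX2, MEIS1, MEIS2 and PKNOX1, differed by 0.10, 0.16, -0.06 and 0.08 in that order.

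**Figure D3:**
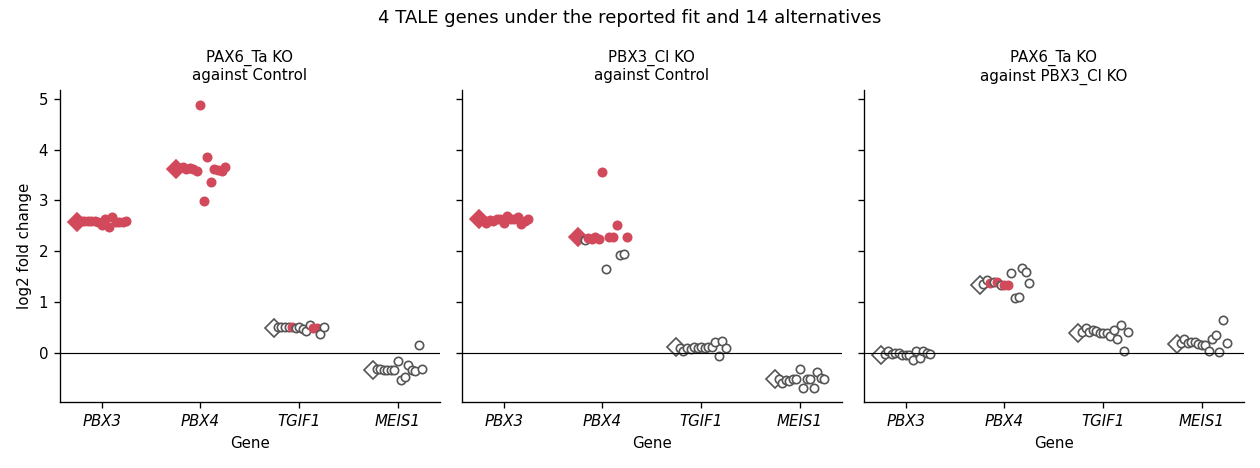
Log2 fold change of PBX3, PBX4, TGIF1 and MEIS1 in the 3 comparisons, with a diamond for the reported fit and circles for the 14 alternatives, filled red where the adjusted p is below 0.05. PBX3 keeps within 2.48 to 2.69 in the comparisons with Control, while PBX4 in PBX3_Cl KO against Control extends from 1.66 to 3.55 and is not called under 4 alternatives.

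The surroundings of PBX3_Cl were examined to see whether PBX3 changed together with its neighbours. The table has 38 genes within 1 Mb of PBX3_Cl or of PBX3, of which 24 were tested. Of the 23 besides PBX3, 0 were called by edgeR in any of the 3 comparisons. At an unadjusted p below 0.05 there was 1 in each knockout against Control and 0 between the knockouts, and DESeq2 likewise called 1, 1 and 0. The median log2 fold change of the 23 genes was 0.03 in both knockouts against Control. MAPKAP1, the mTORC2 subunit gene whose intron holds the element, was at 0.05 in PAX6_Ta KO and 0.19 in PBX3_Cl KO.

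The gene behind the single calls was RALGPS1, which encodes an exchange factor for Ral GTPases and lies 947 kb from PBX3. It had 1.48 and 1.66 CPM in Control, 2.64 and 3.40 CPM in PAX6_Ta KO, and 3.06 and 3.86 CPM in PBX3_Cl KO. Its log2 fold change was 0.94 (SE 0.33, edgeR adjusted p = 0.0985) in PAX6_Ta KO and 1.14 (SE 0.33, adjusted p = 0.0542) in PBX3_Cl KO. With the replicate number as a block these passed, with adjusted p of 0.0304 and 0.0166. Like PBX3, the gene was higher in all 4 knockout libraries than in both Control libraries.

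The HOX genes, whose proteins bind DNA together with PBX, were examined for the same groups. Of 39 HOX genes 27 were tested. In PAX6_Ta KO 13 rose against Control and 0 fell (DESeq2 11 and 0), with a median log2 fold change of 0.51. In PBX3_Cl KO 1 rose and 1 fell, with a median of -0.13 over the 18 genes that had more than 3 counts in at least one of the groups. The first was HOXA3, with 2 and 1 counts in Control and 5 and 14 in PBX3_Cl KO (ratio 7.79, 95% interval 2.29 to 41.1, counting error only, edgeR adjusted p = 0.0386). That call was lost without either Control replicate, without PBX3_Cl KO replicate 2 and with only the groups compared. Upper-quartile scaling, a filter of 1 CPM in 2 libraries and taking out the median of 7p lost it as well. HOXA3 passed the filter on low counts only with the PAX6_Ta KO libraries, which are outside this comparison. The second was HOXC13, with a log2 fold change of -1.71 (SE 0.38, edgeR adjusted p = 0.0136). Between the knockouts 12 were higher in PAX6_Ta KO and 0 lower, with a median of 1.66. The medians 0.51 and 1.66 were the same with genes at 0 in a group set to their lower bound. Of the 13 genes, HOXA5 went from 0 counts in Control to 250 and 225 in PAX6_Ta KO (at least 174-fold, edgeR adjusted p = 4.51e-05) and had 5 and 0 counts in PBX3_Cl KO. HOXA9, named here for its known partnership with PBX3 and not by the rule, had 0 counts in Control and PBX3_Cl KO and 38 and 25 counts in PAX6_Ta KO. Thus PBX3 rose in both knockouts, while HOXA5 and HOXA9 had nearly all of their counts in PAX6_Ta KO. Many of the 13 entered the test only through their counts in that line, since 12 had 3 counts or fewer over the Control pair.

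Of the other TALE homeobox genes 3 of 9 were tested. TGIF2, the paralogue of TGIF1, fell in PAX6_Ta KO from 36.9 and 36.4 CPM to 18.3 and 20.0 CPM (log2 fold change -0.94, SE 0.19, edgeR adjusted p = 0.00611), a call lost without PAX6_Ta KO replicate 1. It had 30.3 and 28.6 CPM in PBX3_Cl KO. TGIF1 had the opposite sign in PAX6_Ta KO, at 0.49. In PBX3_Cl KO none of the 3 was called by edgeR or DESeq2, and 1 had an unadjusted p below 0.05. Between the knockouts 1 was called lower in PAX6_Ta KO, IRX6, with 3 to 22 counts a library. IRX6 passed the filter on low counts only through the PBX3_Cl KO libraries, so that a call here could only be in this direction. Its call was lost under 8 alternatives, among them DESeq2 and leaving out any knockout library. With the replicate block TGIF2 was called too (log2 difference -0.62, adjusted p = 0.0214).

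Among 13 partners of TGIF1 in TGF-beta and retinoid signalling, all tested, 1 rose and 0 fell in PBX3_Cl KO. It was the receptor gene TGFBR2, with 5.78 CPM ± 1.38 beside 0.563 CPM ± 0.405 in Control (SD, n = 2 each, log2 fold change 3.33, edgeR adjusted p = 0.00101). Its Control libraries had 51 and 14 counts, and the log2 fold change was 4.37 without Control replicate 1 and 2.76 without Control replicate 2. In PAX6_Ta KO edgeR and DESeq2 called 0 of the 13, and 3 had an unadjusted p below 0.05. Between the knockouts TGFBR2 was the 1 gene called, lower in PAX6_Ta KO by a log2 difference of -2.92 (SE 0.47, edgeR adjusted p = 0.00188). With the replicate block SMAD3 at 0.69 and HDAC1 at -0.58 were called in PAX6_Ta KO, and HDAC1 at -0.45 between the knockouts.

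Of 12 regulators of HOX and MEIS1 expression and PBX cofactors 11 were tested. AFF1, which encodes a subunit of the super elongation complex, fell in PAX6_Ta KO (log2 fold change -0.95, SE 0.21, edgeR adjusted p = 0.0110). This call was lost when PAX6_Ta KO replicate 1 or Control replicate 2 was left out, and with the median of 4q taken out. PBXIP1, whose protein binds PBX and keeps it from DNA, was the 1 gene called in PBX3_Cl KO. It had 26.8 and 11.9 CPM in Control, 30.4 and 21.5 CPM in PAX6_Ta KO, and 49.5 and 40.1 CPM in PBX3_Cl KO (log2 fold change 1.21, SE 0.32, edgeR adjusted p = 0.0354). The PBXIP1 call was lost without Control replicate 2 and without either PBX3_Cl KO replicate. It was also lost with upper-quartile scaling, with a filter of 1 CPM in 2 libraries and with the median of 1q taken out. Between the knockouts AFF1 was the 1 gene called, lower in PAX6_Ta KO, and with the replicate block ASH2L at -0.70 and PBXIP1 at -0.81 were called lower too.

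Genes listed as targets of MEIS1, PBX or HOXA9 moved in both directions. Of 12 tested among 15, 2 rose and 2 fell in PAX6_Ta KO, and 0 rose and 2 fell in PBX3_Cl KO. TRIB2, a MEIS1 target that encodes a pseudokinase, was the one called in both comparisons with Control. Its level was 181 and 160 CPM in Control, 67.0 and 63.8 CPM in PAX6_Ta KO, and 74.3 and 87.1 CPM in PBX3_Cl KO. Every knockout library was below both Control libraries, with log2 fold changes of -1.38 (SE 0.19, edgeR adjusted p = 0.000478) and -1.08 (SE 0.19, adjusted p = 0.00307). TRIB2 lies on 2p like MEIS1, and its call in PAX6_Ta KO held with the arm median taken out.

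The other targets called in PAX6_Ta KO were SOX4, LMO2 and CDK6. SOX4 had 2 counts in Control against 39 in PAX6_Ta KO, a ratio of 21.4 (95% interval 5.54 to 183, counting error only). It passed the filter on low counts only through the PAX6_Ta KO libraries, so that a call could only be upward there. LMO2 rose by 0.91 and CDK6 fell by 1.04 on the log2 scale. All 3 calls were lost without PAX6_Ta KO replicate 1. LMO2 lies on 11p, the arm of the deleted element, and with the arm median taken out it was at 0.29 (adjusted p = 0.564). Its call was also lost without Control replicate 1, and that of CDK6 without Control replicate 2. In PBX3_Cl KO CCND1, which encodes cyclin D1, fell by 2.14 on the log2 scale (SE 0.38, edgeR adjusted p = 0.00389), though its Control libraries were far apart at 7.53 and 19.0 CPM. Between the knockouts 3 were higher (SOX4, CCND1 and LMO2) and 1 lower (CDK6) in PAX6_Ta KO. Of these, SOX4, LMO2 and CDK6 were not called without PAX6_Ta KO replicate 1, and CDK6 was at -0.39 with the arm median taken out (adjusted p = 0.301).

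Of 4 pseudogene copies of members 2 were tested, and MEIS3P1 was called. It had 3 and 0 counts in Control, 70 and 56 in PAX6_Ta KO, and 1 and 0 in PBX3_Cl KO. It therefore entered the test only through the PAX6_Ta KO libraries and could only be called upward there. The ratio of PAX6_Ta KO to Control was 46.1 (95% interval 15.4 to 227, counting error only, edgeR adjusted p = 0.000701). MEIS3 itself was at -0.17 on the log2 scale. Reads of near-identical copies may be assigned to either gene or dropped, so the MEIS3P1 and MEIS3 counts are uncertain in this respect.

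Markers of blood and stromal cells also differed between the groups. Of 14 erythroid markers 5 rose and 2 fell in PAX6_Ta KO (5 and 3 with the replicate block, which added TAL1 at -0.69 on the log2 scale), and 3 rose and 0 fell in PBX3_Cl KO (5 and 0 with the replicate block), led by the anion exchanger gene SLC4A1 and the alpha-globin gene HBA2. Of 5 tested among 9 megakaryocyte markers 2 fell in PAX6_Ta KO, PPBP and ITGA2B, and with the replicate block TUBB1 rose (1.15 on the log2 scale). In PBX3_Cl KO 1 rose (TUBB1) and 3 fell (PPBP, ITGA2B and GP6), and the call of ITGA2B was lost without Control replicate 1, without PBX3_Cl KO replicate 2 and with DESeq2, and that of TUBB1 without PBX3_Cl KO replicate 1. The Control libraries were far apart for these genes, with 1381 and 69 counts of PPBP and 3232 and 826 counts of ITGA2B in replicates 1 and 2. Their summed level was 71.4 to 160 CPM in Control, 70.0 to 101 CPM in PAX6_Ta KO and 92.9 to 104 CPM in PBX3_Cl KO, while the platelet gene PF4, not tested, had 44 and 0 counts in Control and 0 in PBX3_Cl KO. Of 8 fibroblast markers 3 were tested, and 1 rose and 1 fell in each knockout. The one that fell was COL1A2 in both, and it made up nearly all of the summed level in Control. It had 48.7 and 133 CPM in Control, 17.8 and 18.8 CPM in PAX6_Ta KO, and 1.38 and 1.70 CPM in PBX3_Cl KO. COL1A1 rose in PAX6_Ta KO, from 0.133 and 0.139 CPM to 4.66 and 3.93 CPM. COL3A1 rose in PBX3_Cl KO, from 0.0999 and 0.178 CPM to 1.25 and 0.851 CPM. Both genes passed the filter on low counts only through libraries of the knockouts, so that their calls against Control could only be upward. LUM and FAP were at 0 in every group. For the myeloid markers (6 of 8 tested) and the lymphoid markers (3 of 8 tested) edgeR and DESeq2 called 0 against Control, and 1 of each had an unadjusted p below 0.05 in PBX3_Cl KO. With the replicate block the myeloid factor gene SPI1 was called in PAX6_Ta KO, at -0.57 on the log2 scale. The myeloid sum was 21.6 to 43.6 CPM over all libraries. The part of these marker differences in the changes of PBX3, PBX4 and PKNOX2 was not tested, and in bulk RNA fewer cells of a type cannot be told apart from less RNA per cell.

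The genes whose log2 CPM over the 6 libraries was most like that of a called member are given as a description. The libraries of a group share their line, so that any gene that separates the groups in the same way scores highly. For PBX3, among 11497 genes, these were STC2 (Pearson's r 0.997), FOXA2 (0.996) and the pseudogene CENPIP1 (0.995). For PBX4 they were MIR9-1HG (0.995), RABL2B (0.993) and ABLIM1 (0.981). For PKNOX2 they were TEP1 (0.996), the member TGIF1 (0.990) and DLGAP1-AS1 (0.988), each over the same 6 libraries.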

How the data were processed

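Total RNA was prepared with an ISOLATE II kit. Libraries came from the Collibri Stranded kit and were read on an Illumina NovaSeq instrument. Adaptor trimming by the authors was done with Cutadapt (version 3.4). They aligned reads to GRCh37 with STAR and deposited the unnormalized read counts of each gene. The sources used here do not give the STAR version. A further 4 columns of the table, whose names match no label, were left out. The authors' tables of DESeq2 fold changes and p-values were not used either.

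The tests on the deposited counts used edgeR (version 4.0.16) under R (version 4.3.3). Genes that passed filterByExpr (20746 of 52088 entries, of which 17198 had no count) entered 1 quasi-likelihood fit of all 6 libraries after TMM scaling, with Benjamini-Hochberg adjustment over all tested genes and a threshold of 0.05. The fit had prior degrees of freedom of 9.18 and a biological coefficient of variation of 0.215. Genes at 0 counts in a group have a lower bound against 3 counts for the 2 libraries together, and genes with 1 to 3 counts a ratio with an exact 95% interval. Counts were simulated for PAX6_Ta KO against Control over 20746 genes, with the same spread for every gene. Changes were placed only in genes above a minimum mean count, which PKNOX2 did not reach. Of the changed genes, 90% of those changed by 2 on the log2 scale and 100% of those changed by 3 were recovered.

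Replicates differed by more than sampling noise (chi-square per degree of freedom 42.0 to 126). Across genes, the replicate 1 to replicate 2 differences of any 2 groups correlated (r of 0.389, 0.210 and 0.379), so the shared numbers may pair the libraries. The reported fit had the group only and did not use this pairing, which enters as the replicate block among the alternatives. For the comparisons given, the replicate block is stated where it changed a call or moved a count by over 1.5 times. Cell type markers are compared with Control only. Between the knockouts the block changed calls among them too. It called HBE1, LYZ and CD79A higher and KLF1, ITGA2B and COL3A1 lower in PAX6_Ta KO, which the reported fit did not.

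Alternatives were DESeq2 (version 1.42.0), its size factors, upper-quartile scaling, 2 other filters, only the groups compared, the replicate block, leaving out each library, and taking out the median of the chromosome arm. Members and gene lists were chosen with earlier results of these data known. Every member is named, and from each other list the called genes with the largest log2 fold changes, up to 4 a comparison. A gene of the TGIF1 partner list is not reported here and was left out of the counts. Positions are from GENCODE release 44 lifted to GRCh37. Element and guide sequences were matched to GRCh37, and upstream windows are from RefSeq (GRCh38.p14).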

Additional observations from a re-analysis of the deposited data

How the results depend on the processing

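The calls of PBX3 in both knockouts and of PBX4 in PAX6_Ta KO against Control were made under each of the 14 alternatives run. The members called in PBX3_Cl KO against Control, 2 in all, were 1 with upper-quartile scaling and 1 with the arm median taken out, and 1 to 2 with 1 library left out. Between the knockouts, where 1 member was called, the count was 2 with no filter on low counts, 2 with only the libraries compared, 0 with the stricter filter, 0 with DESeq2, and 0 to 2 with 1 library left out. In PAX6_Ta KO against Control it was 3 to 4 with 1 library left out. The cause of these changes was not tested, except that the stricter filter left PKNOX2 untested. Over all genes 2370, 1860 and 2483 were called for PAX6_Ta KO, for PBX3_Cl KO (each against Control) and between the knockouts. With the replicate block these were 3548, 2798 and 3877, and no call of a member changed. With 1 library left out they were 1375 to 3368, 1371 to 1930 and 1431 to 2818, the lowest without PAX6_Ta KO replicate 1, Control replicate 2 and PAX6_Ta KO replicate 1. The split between the knockouts, 1091 higher and 1392 lower, was 1229 and 1152 with upper-quartile scaling and 1120 and 909 with arm medians taken out. No called value changed sign. MEIS1 in PAX6_Ta KO, which was not called, went from -0.35 to 0.15 with the arm median taken out. With 2 libraries a group and members such as PBX4 and PKNOX2 at under 30 counts in some libraries, depth limits the size of those changes.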
